A study of Mus musculus with 8 samples.

Results

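The genes described here carry out cellular iron handling: uptake (Tfrc, Trf, Slc11a2), storage (Fth1, Ftl1), export (Slc40a1), sensing and its hormone (Ireb2, Aco1, Hamp), and release of iron from haem (Hmox1). They were chosen as a named list of 10 genes, with no measured value in the rule, but with earlier results of these data known. All 10 are among the 21368 genes named on the array. Of these, 9 gave a signal above background in enough mice to enter the fit over 16620 genes, and Hamp did not.

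RNA came from the hippocampus of 8 female mice, each on its own 1-colour Agilent expression array. No group carried a transgene: the mice were the nontransgenic littermates in a transgenic line kept on a C57BL/6J background. The Control group (n = 4) was untreated and 19 weeks old. The Hydroxyurea group (n = 4) drank hydroxyurea at 45 mg/kg/day for 10 weeks, and its mice 1 and 2 were 24 weeks old while mice 3 and 4 were 19 weeks old. There was no untreated mouse of 24 weeks. Each treatment p-value below therefore sets a difference against the spread between 4 and 4 mice from shared cages. In limma this spread also borrows from that of all genes tested. The p-values of correlations are over all 8 mice.

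Transferrin (Trf) carries iron between cells and is taken up through the transferrin receptor (Tfrc). The divalent metal transporter (Slc11a2) then moves the iron across the endosome membrane into the cytosol, where ferritin, built of heavy (Fth1) and light (Ftl1) subunits, stores it. Ferroportin (Slc40a1) exports it, and hepcidin (Hamp) has ferroportin degraded. The iron regulatory proteins Aco1 and Ireb2 bind iron-responsive elements in several of these transcripts when cellular iron is low, which blocks translation of ferritin and stabilises Tfrc mRNA. In the brain, oligodendrocytes are rich in iron and make most of the transferrin. Hydroxyurea inhibits ribonucleotide reductase, an enzyme with an iron centre. An array measures mRNA, so translational control by the iron regulatory proteins is not seen in these values.

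The ferritin subunit genes are those whose levels are set side by side below, and the stretches of 110 bases before an annotated start of each are shown for that comparison (RefSeq, GRCm38.p6, 5′ to 3′). Capitals mark ATTGG, the inverted CCAAT box, a motif searched for only after the windows had been read. The Fth1 stretch is chr19:9982536-9982645 on the plus strand, before the second of the gene's annotated starts. The Ftl1 stretch is chr7:45459887-45459996 on the minus strand.
Fth1: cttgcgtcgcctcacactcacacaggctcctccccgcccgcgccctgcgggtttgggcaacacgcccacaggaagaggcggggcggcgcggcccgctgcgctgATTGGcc
Ftl1: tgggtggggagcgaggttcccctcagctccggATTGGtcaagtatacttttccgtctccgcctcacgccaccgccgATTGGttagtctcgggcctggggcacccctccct
Only windows that hold the motif were shown, so a match in each gene was set by that choice. The Fth1 stretch held 1 match and the Ftl1 stretch held 2. The window at the other annotated Fth1 start held 0. On either strand, ATTGG stood in the 250 bases before the start in 33.8% of 32851 mouse windows, and 10.1% held at least 2. Windows were found for 6 of the 10 iron genes (8 windows), and 3 of the 8 held the motif: 1 each for Fth1, Ftl1 and Tfrc. The antioxidant response element core TGACNNNGC, on either strand of the 300 bases, was in 12.4% of all windows and in 0 of the 8. The loop of the iron-responsive element, CAGTGN, on the sense strand of the first 50 transcribed bases, was in 7.08% of all windows and in 0 of the 8. Slc11a2 had no window, and transcribed bases past the first 50 were not searched, so elements elsewhere in these transcripts could not be found. A match or its lack describes these letters alone.

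Levels are given as scaled log2 signal: each probe's log2 signal after subtraction of its array's 75th percentile. A value of 0 is thus as bright as the array's 75th percentile, and levels of different genes are not compared, since probes differ in brightness. The 75th percentile signal was 1677 to 2417 on the Control arrays, 1680 to 2162 on Hydroxyurea 1, 3 and 4, and 1052 on Hydroxyurea 2, the dimmest. The coefficient of variation of replicate spots was 11.0% on Control 1 and 3.19% to 3.56% elsewhere. All Control arrays lay in row 1 of the slide and all Hydroxyurea arrays in row 2, and an effect of the row cannot be told apart from the treatment. Markers of hippocampal neurons were all measured (10 of 10), and the difference of their mean score between the groups was -0.05 (exact permutation p = 0.657). All 12 markers of choroid plexus, the secretory tissue that projects into the ventricles beside the hippocampus, were measured too and averaged 1.23 higher on the log2 scale in Hydroxyurea (exact permutation p = 0.257). Their summed level ran from 4.94 to 7.35 in Control and from 5.42 to 8.48 in Hydroxyurea. In bulk tissue, fewer cells of a type and less RNA per cell cannot be told apart.

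None of the 9 iron genes tested passed the threshold of an adjusted p under 0.05 in limma's fit of Hydroxyurea against Control. The fit called 0 of 16620 genes (0%) at that threshold. At an unadjusted p under 0.05 it gave 1 iron gene, Slc11a2, which was lower. Over all genes, 3.53% were higher and 6.36% lower at that level. Slc11a2 was also the only iron gene tested whose groups did not overlap on the probe used, against 2.38% of all genes with every treated mouse higher and 5.11% with every treated mouse lower. The median log2 fold change was 0.07 over the 9 genes and -0.0038 over all genes. The estimate lay above 0 for 7 and below 0 for 2, but with each array centred on its median it lay above 0 for 3 and below for 6. In this fit, on the probe used, all 9 of the 95% intervals stayed within a 1.5-fold change in either direction. So did those of 77.7% of all genes tested. The interval of Fth1 came nearest, with an upper end of 1.48-fold. Intervals of second probes and of the alternatives were not set against that mark. The SD over the 8 mice had a median of 0.15 for the iron genes (0.13 to 0.26) and of 0.16 for all genes.

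**Figure D1:**
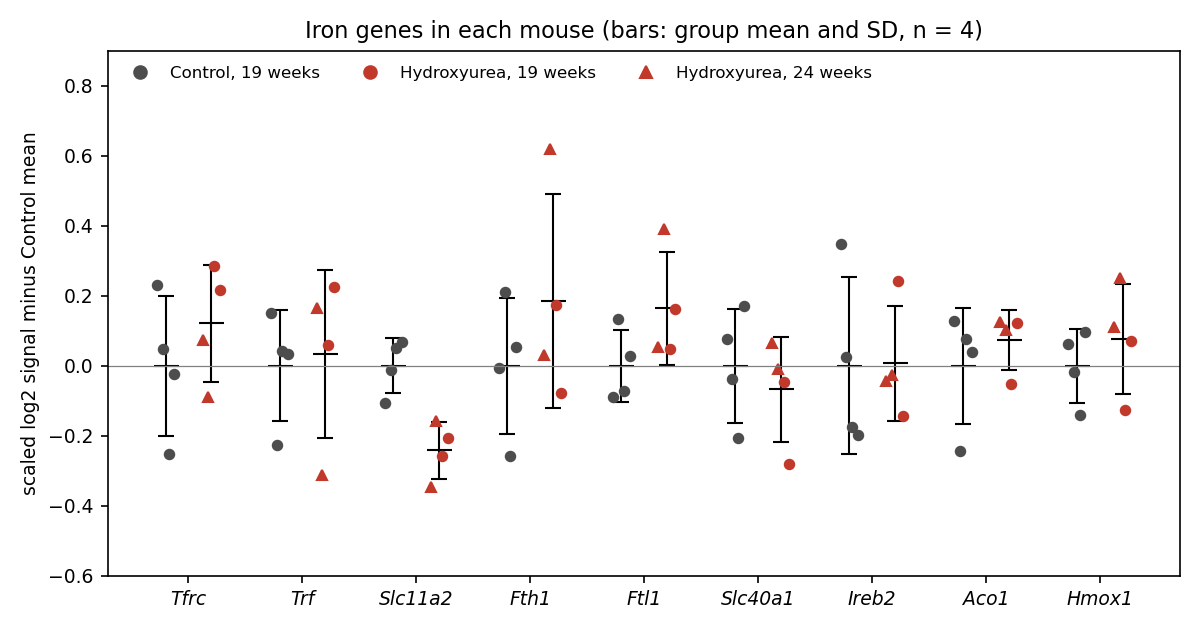
Scaled log2 signal of the 9 iron genes tested in each of the 8 mice, as the difference from the gene's Control mean (y axis, log2). Circles are mice of 19 weeks, triangles treated mice of 24 weeks, and bars the group mean and SD (n = 4); the groups overlap for every gene but Slc11a2.

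The gene with the clearest separation was Slc11a2, the divalent metal transporter. Its scaled log2 signal was -0.56, -0.47, -0.40 and -0.38 in Control and -0.80, -0.61, -0.71 and -0.66 in Hydroxyurea. Every treated mouse lay below every untreated one. The means were -0.45 ± 0.08 (SD, n = 4) and -0.69 ± 0.08 (SD, n = 4). The difference was -0.24 ± 0.07 (SE), which is 0.846 of the Control level (95% interval 0.759 to 0.942). Limma's adjusted p was 0.452, with an unadjusted p of 0.00736, so Slc11a2 did not pass the threshold over all genes. The exact permutation p was 0.0286, two-sided, the smallest that 4 against 4 mice can give. The treated mice of 24 weeks and of 19 weeks did not separate, with an age difference of -0.02 ± 0.10 (SE).

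A second probe for Slc11a2, A_52_P254298, did not show this separation. Its scaled log2 signal was -3.74, -3.51, -3.84 and -3.75 in Control and -3.63, -3.57, -3.57 and -3.84 in Hydroxyurea, with groups that overlapped. The difference was 0.06 ± 0.10 (SE; limma's adjusted p over all probes 0.874). Across the 8 mice the probes did not follow each other (r = -0.29, exact permutation p = 0.472, adjusted 0.566 over 6 such probe pairs; rho = -0.19, p = 0.665, adjusted 0.798; r = -0.19 without Control 4 and Hydroxyurea 1). Averaging both probes gave -0.09 ± 0.07 (SE) for the gene. Slc11a2 makes several transcripts with different ends, and which of them each probe reads is not given in the sources used here.

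**Figure D2:**
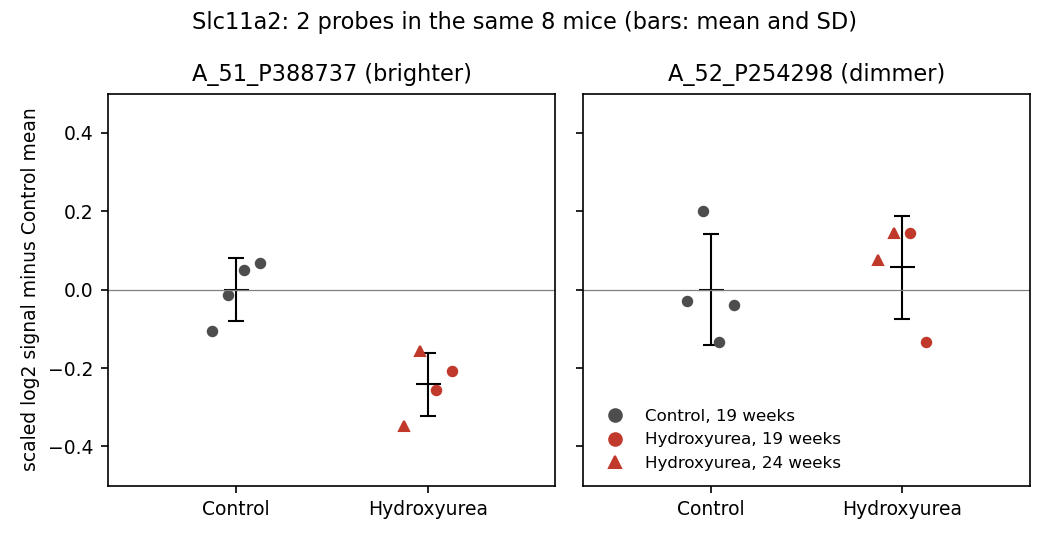
Scaled log2 signal of the brighter and the dimmer Slc11a2 probe in the same 8 mice, as the difference from each probe's Control mean (y axis, log2; bars are mean and SD, n = 4). The groups separate on the brighter probe (-0.24 ± 0.07, SE) and overlap on the dimmer one (0.06 ± 0.10, SE).

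Tfrc, the receptor that takes up transferrin-bound iron, read 1.28, 1.10, 0.80 and 1.03 in Control and 1.13, 0.96, 1.34 and 1.27 in Hydroxyurea. The groups overlapped, with the lowest mouse in Control and the highest in Hydroxyurea. Its difference was 0.12 ± 0.12 (SE; 95% interval -0.16 to 0.40; limma's adjusted p = 0.755; exact permutation p = 0.400). It ranged from 0.04 without Control 3 to 0.20 without Control 1 as single mice were left out, and was 0.25 among the 19-week mice. The probe was printed as 10 spots on each array, and the SD between those spots, 0.036 to 0.075, was smaller than the SD of 0.18 between mice. Other Tfrc probes gave 0.06 ± 0.13 and 0.08 ± 0.18 (SE). The first of these did not follow the main probe across mice (r = -0.04), while the second did (r = 0.86, exact permutation p = 0.00588, adjusted 0.0176; rho = 0.76, adjusted 0.0688; r = 0.58 without Control 3 and Hydroxyurea 3).

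Trf, which encodes transferrin, read 5.66, 5.28, 5.55 and 5.54 in Control and 5.67, 5.20, 5.57 and 5.73 in Hydroxyurea. The lowest mouse of each group, Control 2 and Hydroxyurea 2, stood below the other 6 mice, which lay between 5.54 and 5.73. The difference was 0.03 ± 0.13 (SE; 95% interval -0.27 to 0.34; limma's adjusted p = 0.946). A second Trf probe followed the first across mice (r = 0.94, exact permutation p = 0.00104, adjusted 0.00625; rho = 0.90, adjusted 0.0217; r = 0.84 without Control 2 and Hydroxyurea 2) and gave 0.14 ± 0.20 (SE).

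The spread of Trf between mice followed the oligodendrocyte markers. All 12 of 12 listed markers, among them the myelin genes Mbp, Mag and Mog, were well above background on enough arrays to be tested. Their mean score in each mouse, relative to each gene's mean, was 0.16, -0.28, 0.06 and 0.02 in Control and 0.15, -0.41, 0.08 and 0.22 in Hydroxyurea. The mice low in Trf, Control 2 and Hydroxyurea 2, were also the lowest in this score. Trf and the score gave r = 0.995 (exact permutation p = 4.96e-05, adjusted 0.000992) and rho = 0.976 (p = 0.000397, adjusted 0.00794), with r = 0.979 over the 6 mice left without Control 2 and Hydroxyurea 2. This was the only one of 20 relations that passed, between Tfrc, Trf, Fth1, Ftl1 or Slc40a1 and the scores of oligodendrocytes, choroid plexus, microglia or endothelium. The score did not separate the groups, with a difference of 0.02 (exact permutation p = 0.857) and a summed marker level of 7.65 to 7.99 in Control and 7.52 to 8.01 in Hydroxyurea. With the score as a covariate, the treatment difference of Trf was 0.02 ± 0.05 (SE).

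**Figure D3:**
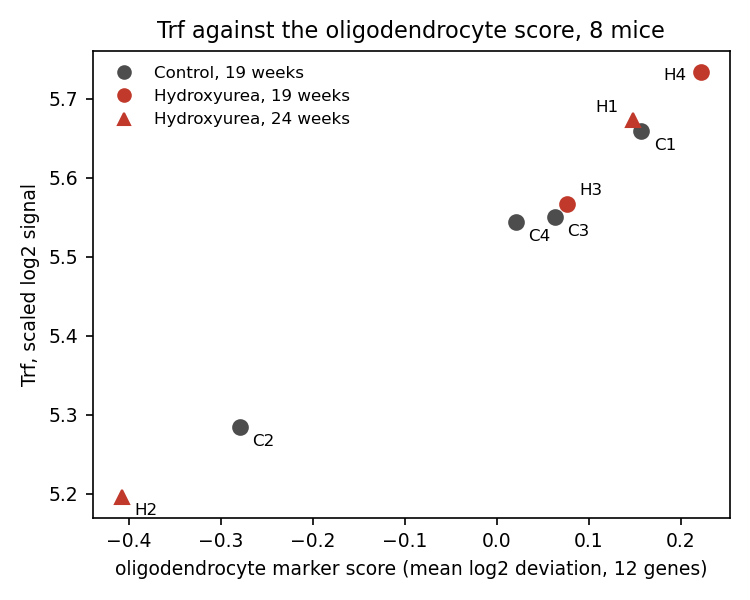
Scaled log2 signal of Trf (y axis) against the oligodendrocyte marker score (x axis, mean log2 deviation over 12 genes), 1 point per mouse (C for Control, H for Hydroxyurea, with its number); circles are mice of 19 weeks and triangles treated mice of 24 weeks. The points lie along a line in both groups (r = 0.995), with Control 2 and Hydroxyurea 2 at its lower end.

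Fth1, the ferritin heavy subunit that oxidises iron for storage, read 7.70, 7.92, 7.45 and 7.76 in Control and 7.74, 8.33, 7.88 and 7.63 in Hydroxyurea. Hydroxyurea 2 stood above all other mice, and the remaining 3 treated mice lay among the controls. The difference was 0.19 ± 0.16 (SE; 95% interval -0.19 to 0.56; limma's adjusted p = 0.719; exact permutation p = 0.400). Without Hydroxyurea 2, the dimmest array, it was 0.04 ± 0.12 (SE), and with quantile normalization it was 0.01 ± 0.06 (SE). With the oligodendrocyte score as a covariate it was 0.20 ± 0.09 (SE). The Fth1 difference stayed above 0 under all 22 alternatives (0.01 to 0.27, limma's adjusted p 0.420 to 0.971).

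Ftl1, the light subunit that helps iron to mineralise inside the shell, read 6.27, 6.49, 6.29 and 6.39 in Control and 6.41, 6.75, 6.41 and 6.52 in Hydroxyurea. The groups overlapped, with 3 controls below every treated mouse and the highest control above 2 of them. The difference was 0.16 ± 0.10 (SE; 95% interval -0.06 to 0.38; limma's adjusted p = 0.582; exact permutation p = 0.114). It was 0.09 ± 0.08 (SE) without Hydroxyurea 2 and 0.05 ± 0.08 with arrays weighted by their quality. With the oligodendrocyte score as a covariate it was 0.17 ± 0.06. The Ftl1 difference stayed above 0 under all 22 alternatives (0.05 to 0.21, limma's adjusted p 0.379 to 0.851). On a second Ftl1 probe, A_55_P1983959, the levels were 3.05, 3.12, 3.10 and 3.09 in Control and 3.23, 3.26, 3.13 and 3.26 in Hydroxyurea. Here every treated mouse lay above every control, although the lowest treated value, 3.13, almost met the highest control value, 3.12. This probe gave 0.13 ± 0.06 (SE; limma's adjusted p over all probes 0.609). Of the 15 iron gene probes tested, this was the only one with every treated mouse higher, and the brighter Slc11a2 probe the only one with every treated mouse lower. The shares over all 36753 probes tested were 2.15% and 4.26%. Both Ftl1 probes ranked the mice alike (r = 0.77, exact permutation p = 0.0174, adjusted 0.0349; rho = 0.88, adjusted 0.0217; r = 0.59 without Control 1 and Hydroxyurea 2). Ferritin genes have many near-identical processed copies in the mouse genome, and whether these probes read such copies was not tested.

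The ferritin subunits were compared across the 8 mice, and their relation did not pass the test. Among 36 pairs of iron genes, a family added after the values had been seen, Fth1 and Ftl1 gave the highest r with the scaling used here, 0.83 (exact permutation p = 0.0201, adjusted 0.362; rho = 0.52, p = 0.197, adjusted 0.865). Without Control 1 and Hydroxyurea 2 r was 0.53. With each array centred on its median the pair gave r = 0.57, below Aco1 with Trf (0.75), Tfrc with Ireb2 (0.73) and Tfrc with Trf (0.64), and none of the 36 passed (lowest adjusted exact permutation p = 0.277). Fth1 and Trf gave r = -0.78 (exact permutation p = 0.0180, adjusted 0.362; rho = -0.69, p = 0.0694, adjusted 0.865), which was -0.05 without Control 2 and Hydroxyurea 2. Hydroxyurea 2 held the highest Fth1, Ftl1 and Hmox1 and the lowest Trf of the 8 mice, and it was the dimmest array. The part of array brightness in this was not tested.

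Slc40a1, ferroportin, read -0.31, -0.43, -0.60 and -0.22 in Control and -0.32, -0.40, -0.44 and -0.67 in Hydroxyurea. The groups overlapped, with Control 3 and Hydroxyurea 4 the lowest. The difference was -0.07 ± 0.11 (SE; 95% interval -0.31 to 0.18; limma's adjusted p = 0.844). The choroid plexus score was 2.68 in Hydroxyurea 4 and 0.86 in Control 3, but also 0.88 in Hydroxyurea 2, where Slc40a1 was not among the lowest. Against that score r was -0.77 (exact permutation p = 0.0268, adjusted 0.179; rho = -0.69, p = 0.0694, adjusted 0.332), and -0.51 without Control 1 and Hydroxyurea 4. With that score as a covariate the treatment difference was 0.03.

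Ireb2 and Aco1, the iron regulatory proteins, did not separate the groups. Ireb2 read -3.14, -3.46, -3.67 and -3.69 in Control and -3.53, -3.52, -3.25 and -3.63 in Hydroxyurea. Its difference was 0.01 ± 0.14 (SE; 95% interval -0.31 to 0.33; limma's adjusted p = 0.990). Aco1, which acts as a cytosolic aconitase when it holds an iron-sulphur cluster, read -2.86, -3.23, -2.91 and -2.95 in Control and -2.86, -2.88, -3.04 and -2.86 in Hydroxyurea. Control 2 was its lowest mouse and 3 of the treated mice were nearly equal. Its difference was 0.07 ± 0.09 (SE; 95% interval -0.14 to 0.29; limma's adjusted p = 0.803).

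Hamp, the hepcidin hormone made mainly in liver, was well above background on 0 of 4 Control and 0 of 4 Hydroxyurea arrays. Its scaled log2 signal ran from -8.85 to -7.27, and no fold change is given.

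Hmox1, the inducible haem oxygenase that frees iron from haem, read -0.71, -0.79, -0.91 and -0.67 in Control and -0.66, -0.52, -0.90 and -0.70 in Hydroxyurea. Only Hydroxyurea 2 lay clearly above the controls. The difference was 0.08 ± 0.09 (SE; 95% interval -0.14 to 0.29; limma's adjusted p = 0.800), among the 19-week mice it was -0.03, and with 1 mouse left out it ran from 0.02 without Hydroxyurea 2 to 0.14 without Hydroxyurea 3. A second Hmox1 probe gave 0.21 ± 0.15 (SE; limma's adjusted p over all probes 0.688), and the probes gave r = 0.68 across mice (exact permutation p = 0.0635, adjusted 0.0952; rho = 0.74, adjusted 0.0688).

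**Figure D4:**
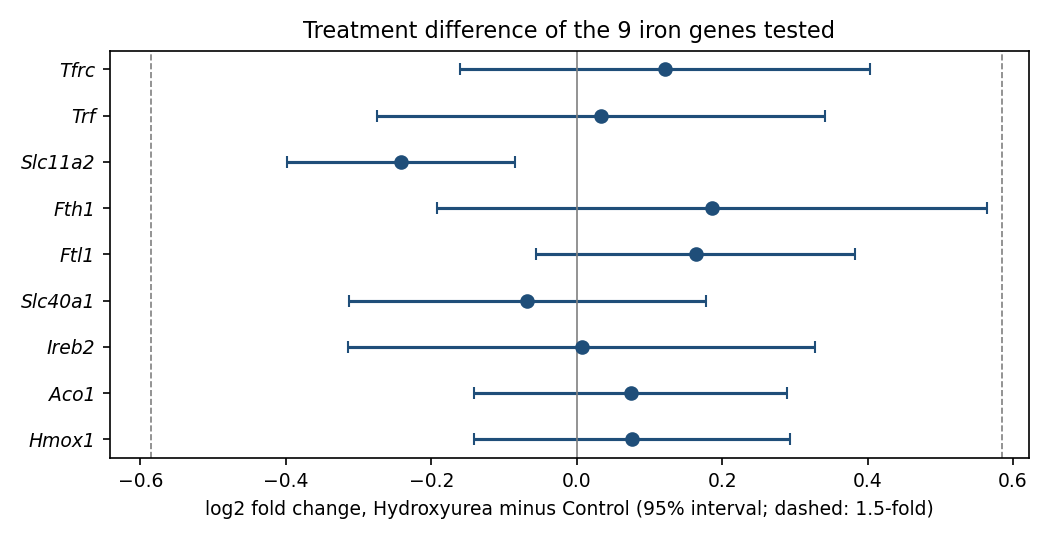
Log2 fold change of Hydroxyurea against Control for the 9 iron genes tested (x axis), with 95% intervals; dashed lines mark a 1.5-fold change. Only the interval of Slc11a2 (-0.40 to -0.09) leaves out 0, and none reaches the dashed lines.

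Age was compared within the treated mice only, 2 of 24 weeks against 2 of 19 weeks, so it is also a comparison of age at the start of treatment. The limma fit called 0% of genes at an adjusted p under 0.05, and at an unadjusted p under 0.05 it gave 1.26% higher and 1.44% lower at 24 weeks. No iron gene passed at either level. The estimates furthest from 0 were 0.28 ± 0.22 (SE) for Fth1, -0.26 ± 0.16 for Tfrc, -0.22 ± 0.19 for Trf and 0.21 ± 0.12 for Hmox1. With 2 mice on each side, the smallest p an exact permutation can give is 0.333.

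The other genes of iron and haem handling, 92 on lists beside these 10, were tested for 87, and none passed the adjusted threshold. The estimate lay above 0 for 47 and below for 40, with a median of 0.02. Of the 87, 2 were higher and 8 lower at limma's unadjusted p under 0.05, against 3.53% and 6.36% of all genes tested. The groups did not overlap for 5 higher and 6 lower, against 2.38% and 5.11% of all genes tested. The counts by list below are to be read against the same shares.

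**Figure D5:**
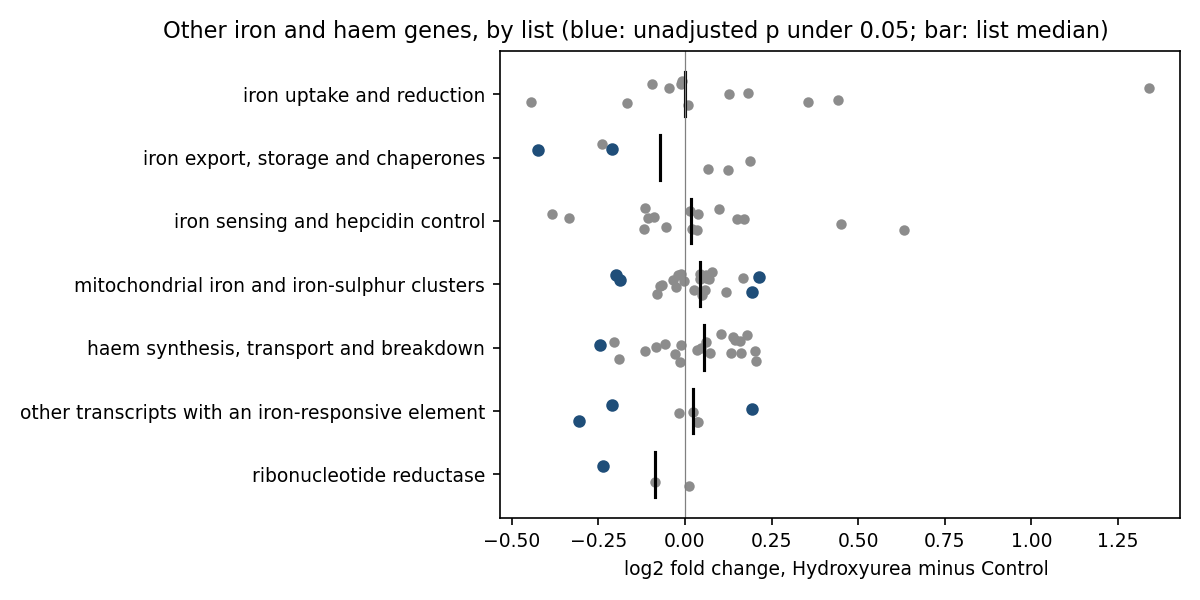
Log2 fold change of Hydroxyurea against Control (x axis) for the other iron and haem genes, 1 point per gene, by list; vertical bars are list medians and blue points have an unadjusted p under 0.05. List medians lie between -0.08 and 0.05, and the widest point, Steap1 at 1.34, has an unadjusted p of 0.170.

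Among genes of iron uptake and reduction, 12 of 13 were tested and 0 reached an unadjusted p under 0.05. The smallest values were those of Steap3, the endosomal ferrireductase (0.18 ± 0.09, SE), of the ferritin receptor Scara5 (0.44 ± 0.28) and of Steap1 (1.34 ± 0.89). Second probes gave 0.11 ± 0.16 for Steap3 and 0.89 ± 0.68 for Scara5. Steap1 read -3.19, -2.62, -0.74 and -1.88 in Control and -2.81, -0.29, -1.33 and 1.34 in Hydroxyurea. Like the choroid plexus score, it was lowest in Control 1 and highest in Hydroxyurea 4. With that score as a covariate its treatment difference was 0.12 ± 0.15 (SE; limma's unadjusted p = 0.469).

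Among genes of export, storage and iron chaperones, 6 of 8 were tested and 2 were lower at an unadjusted p under 0.05. Heph, the ferroxidase that works with ferroportin, gave -0.42 ± 0.13 (SE; limma's adjusted p = 0.467), while a second probe gave 0.01 ± 0.18 and the third was not well above background in any mouse. Ncoa4, the receptor that carries ferritin to autophagy, gave -0.21 ± 0.09 (adjusted p = 0.494). Pcbp2, a chaperone that delivers iron to ferritin, was higher in every treated mouse (0.19 ± 0.09; adjusted p = 0.517), but a second probe gave -0.09 ± 0.11.

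Among genes of iron sensing and hepcidin control, 16 of 17 were tested and 0 reached an unadjusted p under 0.05. Erfe, the hormone of erythroid cells that lowers hepcidin, gave 0.63 ± 0.33 (SE) and was well above background in 3 Control and 2 Hydroxyurea mice. Smad4 and Bmpr1a, of the pathway that turns hepcidin on, gave -0.12 ± 0.06 and -0.11 ± 0.07, and a second Smad4 probe gave 0.02 ± 0.10.

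Among 23 genes of mitochondrial iron and iron-sulphur clusters, all tested, 2 were higher and 2 lower at an unadjusted p under 0.05. Hscb, a chaperone of cluster transfer, read 1.88, 1.78, 1.92 and 1.78 in Control and 1.71, 1.60, 1.65 and 1.60 in Hydroxyurea. Every treated mouse was lower (-0.20 ± 0.06, SE; limma's adjusted p = 0.467). Isca1, a cluster assembly factor, was higher in every treated mouse (0.21 ± 0.07; adjusted p = 0.476), and its second probe gave 0.04 ± 0.08.

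Among genes of haem synthesis, transport and breakdown, 22 of 23 were tested and 1 was lower at an unadjusted p under 0.05. This was Bach1, the haem-binding repressor of Hmox1, at -0.25 ± 0.09 (SE; limma's adjusted p = 0.491) with overlapping groups. Ppox, an enzyme near the end of haem synthesis, gave 0.14 ± 0.06 (adjusted p = 0.506), and Uros gave -0.19 ± 0.09 on one probe and 0.18 ± 0.14 on another.

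Among 7 other transcripts listed as carrying an iron-responsive element, all tested, 1 was higher and 2 lower at an unadjusted p under 0.05. Cdc42bpa, a kinase on this list, read 3.81, 3.73, 3.81 and 3.84 in Control and 3.57, 3.47, 3.56 and 3.36 in Hydroxyurea. Every treated mouse was lower on that probe (-0.30 ± 0.07, SE; limma's adjusted p = 0.452), but its other 3 probes gave 0.02 ± 0.08, -0.16 ± 0.18 and 0.05 ± 0.10. Epas1, which encodes HIF-2 alpha, gave -0.21 ± 0.08 (adjusted p = 0.491), with 0.49 ± 0.21 and -0.14 ± 0.13 on its other probes.

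All 3 genes of ribonucleotide reductase, the enzyme that hydroxyurea inhibits, were tested. Rrm2b, the small subunit used outside S phase, read -1.49, -1.15, -1.13 and -1.15 in Control and -1.44, -1.50, -1.46 and -1.45 in Hydroxyurea. Control 1 lay at the level of the treated mice and the other 3 controls above all of them. The difference was -0.24 ± 0.09 (SE; limma's adjusted p = 0.491), and a dimmer second probe gave -0.33 ± 0.16. Over the 22 alternatives the difference for the gene ran from -0.32 to -0.20. It was -0.32 ± 0.05 without Control 1 (adjusted p = 0.231), and removing the control nearest the treated mice must move it further from 0. Control 1 also had the most variable spots, and their part in this was not tested. Rrm2, the small subunit of dividing cells, gave -0.08 ± 0.08, and the large subunit Rrm1 gave 0.01 ± 0.08.

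Genes whose levels across the 8 mice were most like those of the 3 most variable iron genes were sought among 16585 genes by Pearson r, as a description. For Fth1 they included Zfp663 (r = 0.996) and Hspa8 (0.995). For Trf they were Tmem63a (0.994), Slc44a1 (0.991) and Galnt6 (0.989). For Ireb2 they were Wnk2 (0.963), Kcnk3 (0.962) and Mrps27 (0.958). These r values share the same 8 arrays and their scaling.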

How the data were processed

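Feature Extraction 12.0.3.1 read the scans, per the file headers, and the deposited processed signal is an intensity, background-subtracted within the array. The deposited flags mark outlier spots and spots well above background. The authors' deposited value table is a z score, which was used for counts of genes only. The headers give build mm9 (NCBI37), so no gene coordinates are printed from the gene table (GRCm38.p6). Of 55681 probes, 28331 named 1 gene each. Log2 of the processed signal was scaled by each array's 75th percentile. The brightest probe stood for a gene, and 16620 genes were tested (minimum of 4 arrays well above background and of 6 with a value, of 8). No spot was saturated.

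The treatment test was limma 3.58.1 (lmFit, then eBayes; R 4.3.3), two-sided. Adjustment was by Benjamini and Hochberg across every gene tested, with a threshold of 0.05. Second probes were tested in a fit over 36753 probes. Single values and correlations used exact permutation. Of each list, the 3 genes with the smallest unadjusted p were named, apart from a few that are not reported here. Simulated data were used to test the fit. Alternatives were other scalings, filters, covariates and left-out mice. The iron genes and lists were chosen with earlier results of these data known.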

Additional observations from a re-analysis of the deposited data

Results flagged for a closer look

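Of 58 groups of 4 mice checked for a sample far from the others, 2 held one, and chance alone would mark about 1 in 20 groups. Aco1 in Hydroxyurea 3 was -3.04 (scaled log2 signal), against -2.88 to -2.86 in the other treated mice. Rrm2b in Control 1 was -1.49, against -1.15 to -1.13 in the other controls.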

How the results depend on the processing

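No gene and no iron gene passed the adjusted threshold for treatment under any of the alternatives run. Slc11a2 stayed below 0 under all 22 (-0.32 to -0.09, adjusted p 0.117 to 0.732), and its unadjusted p was 0.195 with the mean of all probes. With each array centred on its median, which put the median of all genes at -0.09, the sign turned for Ireb2 (-0.075), Aco1 (-0.0081), Trf (-0.049), Hmox1 (-0.0058) and Rrm1 (-0.070), and 3 relations with cell type scores passed in place of 1. Those added were Fth1 with oligodendrocytes (r = -0.88, adjusted exact permutation p = 0.0427, r = -0.26 without 2 mice) and Slc40a1 with choroid plexus (r = -0.88, adjusted p = 0.0322). The sign also turned for Ireb2 with quantile normalization (-0.061), for Slc40a1 (0.017) and Trf (-0.025) with normexp, for Heph (0.10) and Epas1 (0.045) with the mean of all probes, for Hmox1 with array weights (-0.00075), age as a covariate (-0.029) and 19-week mice only (-0.029), and for Slc40a1 with choroid plexus as a covariate (0.033). The cause was not tested. Leaving out 1 mouse gave -0.0068 to 0.12 for Aco1, -0.042 to 0.15 for Trf, -0.020 to 0.068 for Rrm1, -0.071 to 0.12 for Ireb2, -0.14 to 0.0031 for Slc40a1, and 0 to 7 genes past the age threshold (1 without Hydroxyurea 3, 7 without Hydroxyurea 4, each leaving 1 treated mouse of 19 weeks that is assumed to vary like the other groups). Genes at an unadjusted p under 0.05 numbered 1643 as reported and 1110 to 2521 with 1 mouse left out (lowest without Control 4, highest without Control 1), 3252 with array weights and 2483 with no filter. Across genes, mice with the same number did not deviate together (r = 0.05, 0.20, -0.21 and -0.06). In Trf and the oligodendrocyte score, however, Control 2 and Hydroxyurea 2 were each the lowest of their group. A replicate block called 0 genes and gave Slc11a2 -0.24 ± 0.07 (SE; adjusted p = 0.605). The block lowered the SE of Trf from 0.134 to 0.074, of Ftl1 from 0.095 to 0.064 and of Fth1 from 0.164 to 0.123. It raised the SE of Tfrc, Slc40a1, Ireb2 and Aco1. Signal over background and 4 mice a group limit what could be seen.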
